A study of Homo sapiens with 15 samples.

Results

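The genes described here are 7 matrix metalloproteinases (MMP1, MMP2, MMP3, MMP14, MMP15, MMP16 and MMP19) and 3 of their tissue inhibitors (TIMP1, TIMP2 and TIMP3). They were chosen by gene symbol from the 60675 genes of the count table, not by their values, and all 10 were found once and passed the filter on low counts. RNA-seq was performed on HT1080 cells, a human fibrosarcoma line, as 5 groups of 3 biological replicates (15 libraries), and every group received an inhibitor. 6CD1m cells (genotype HDAC6H216A, first catalytic domain of KDAC6 inactivated) and 6CD2m cells (HDAC6H611A, second catalytic domain inactivated) were treated with 1 μM Tubastatin A, a KDAC6 inhibitor, for 2 days. 8CDm cells (HDAC8H143A, with KDAC8 inactivated) received the KDAC8 inhibitor PCI-34051 at 5 μM, also for 2 days. WT cells were kept for 14 days in either inhibitor, Tubastatin A at 1 μM in one group and PCI-34051 at 5 μM in the other. Below, WT Tub and WT PCI denote these last groups.

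The lines carry missense changes made by gene editing in the endogenous genes, and whether each line is 1 clone is not given in the sources used here. Only 6CD1m and 6CD2m cells differ by line alone. Against WT cells, line and length of treatment change together, and against 8CDm cells, line and inhibitor change together, so these cannot be told apart. Untreated cells are not analysed here.

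Matrix metalloproteinases are zinc-dependent proteases that cut collagens, proteoglycans and other proteins of the extracellular matrix, and most are secreted or displayed as inactive precursors. TIMPs bind the active site of these enzymes and block it. MMP14 on the cell surface, together with TIMP2, forms the complex that activates the MMP2 precursor, so TIMP2 serves both as an inhibitor and as an adaptor. HT1080 cells are widely used to study this system because they invade matrix and make MMP2, MMP9 and MMP14.

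RefSeq windows of the 250 bases before the transcription start (build GRCh38.p14) were examined for MMP14, MMP15, TIMP1 and TIMP3 only. No window of the other genes was examined, so the motif counts do not describe them. The windows of MMP15, TIMP1 and TIMP3 are shown because each of these genes passed the threshold in 3 of the comparisons that follow, and MMP14 in 1. All are on the + strand and are given 5′ to 3′. Capitals mark matches on either strand to the Sp1 motif GGGCGG and, in TIMP1, to the ETS motif AGGAAG.
MMP15, chr16:58025504-58025753: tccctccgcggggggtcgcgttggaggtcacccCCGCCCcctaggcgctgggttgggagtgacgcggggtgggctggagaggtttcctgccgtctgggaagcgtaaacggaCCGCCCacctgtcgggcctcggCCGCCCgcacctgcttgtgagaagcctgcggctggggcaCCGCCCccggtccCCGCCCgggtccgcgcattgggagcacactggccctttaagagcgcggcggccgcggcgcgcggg
TIMP1, chrX:47582186-47582435: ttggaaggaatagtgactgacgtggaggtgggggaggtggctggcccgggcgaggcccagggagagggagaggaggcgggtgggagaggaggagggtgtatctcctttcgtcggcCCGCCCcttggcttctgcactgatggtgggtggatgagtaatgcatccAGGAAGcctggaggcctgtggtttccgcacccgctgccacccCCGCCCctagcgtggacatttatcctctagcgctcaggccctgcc
TIMP3, chr22:32801455-32801704: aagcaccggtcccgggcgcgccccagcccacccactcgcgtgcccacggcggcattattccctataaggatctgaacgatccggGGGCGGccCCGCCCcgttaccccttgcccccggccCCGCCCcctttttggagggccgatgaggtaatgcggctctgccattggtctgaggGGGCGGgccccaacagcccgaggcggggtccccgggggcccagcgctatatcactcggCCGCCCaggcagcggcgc

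MMP15 and TIMP3 held 5 Sp1 matches each, TIMP1 held 2 and MMP14 held 1. Of 35116 RefSeq windows of this length, 42.6% held at least 1 such match. The ETS motif was found once in TIMP1, 87 bases before the RefSeq start, and in 28.7% of all windows. The GENCODE 29 spans of all 4 genes, given below, begin inside these windows. That of TIMP1 begins upstream of the ETS match and of the Sp1 match at -45 from the RefSeq start. That of MMP15 begins upstream of its Sp1 matches at -139, -117, -78 and -65, so these lie within the span. Neither the AP-1 motif TGANTCA (6.57% of all windows) nor TATAAA (10.7%) was found in the 4 windows. The motifs do not overlap each other, and a match is a match of letters only.

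The libraries held 10932455 to 19983710 counts on genes, with the 6CD1m libraries lowest (10932455 to 14068244), and 19535 genes were tested. Levels are given as CPM, that is counts scaled to a common library size by TMM (trimmed mean of M-values) and given per 1000000. Differences are log2 fold changes from edgeR, called at a Benjamini-Hochberg adjusted p below 0.001 over all tested genes. The SE given with them was derived as the absolute log2 fold change divided by the square root of the F statistic of the edgeR test. HDAC6, which encodes KDAC6, was expressed in every library, at 13.1 ± 0.99 CPM (SD, n = 3) in 6CD1m and 24.4 ± 1.27 CPM in 6CD2m cells, a log2 fold change of -0.90 ± 0.12 (SE, edgeR adjusted p = 5.4e-05). Against WT Tub it was also lower in 6CD1m cells (-0.97 ± 0.12, edgeR adjusted p = 0.00024). HDAC6 was lower in 8CDm cells than in WT PCI too (-0.66 ± 0.12, edgeR adjusted p = 0.00064), and HDAC8 group means lay between 15.5 and 18.0 CPM. The 8CDm libraries stood apart in the summed level of 45 protein-coding Y chromosome genes (4.21 to 5.42 CPM, against 278 to 580 CPM in the other 12 libraries). On the 8 chromosomes that carry the 10 genes, the median log2 fold change of protein-coding genes lay between -0.30 and 0.20 in the 7 comparisons. Of 10 mesenchymal markers, VIM and COL6A3 were among the highest (VIM group means 2931 to 4611 CPM), while S100A4 and THY1 had at most 13 and 31 counts in any library. Of the epithelial markers, EPCAM and CDH1 had at most 2 counts, KRT19 at most 30 (WT PCI, with 0 in all 6CD2m libraries) and CLDN4 68 to 170. The haematopoietic gene PTPRC had at most 1 count. The 10 mesenchymal markers summed to 7822 to 8854 CPM in 6CD2m, 9377 to 11837 in 6CD1m, 10381 to 11311 in 8CDm, 12677 to 14153 in WT Tub and 12499 to 15577 CPM in WT PCI libraries. The 11 markers of other cell types summed to 4.70 to 15.4 CPM over all libraries, most of it from CLDN4. Of the endothelial markers, CDH5 had 25 to 31 counts in 6CD2m, 39 to 53 in 8CDm and at most 4 in the other libraries. VWF had 23 to 31 counts in 6CD2m, 3 to 7 in 8CDm and at most 10 in the others, and PECAM1 at most 9 in any library. The part of these markers in the results was not tested. In bulk RNA, fewer cells that express a gene and less RNA per cell cannot be told apart.

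**Figure D1:**
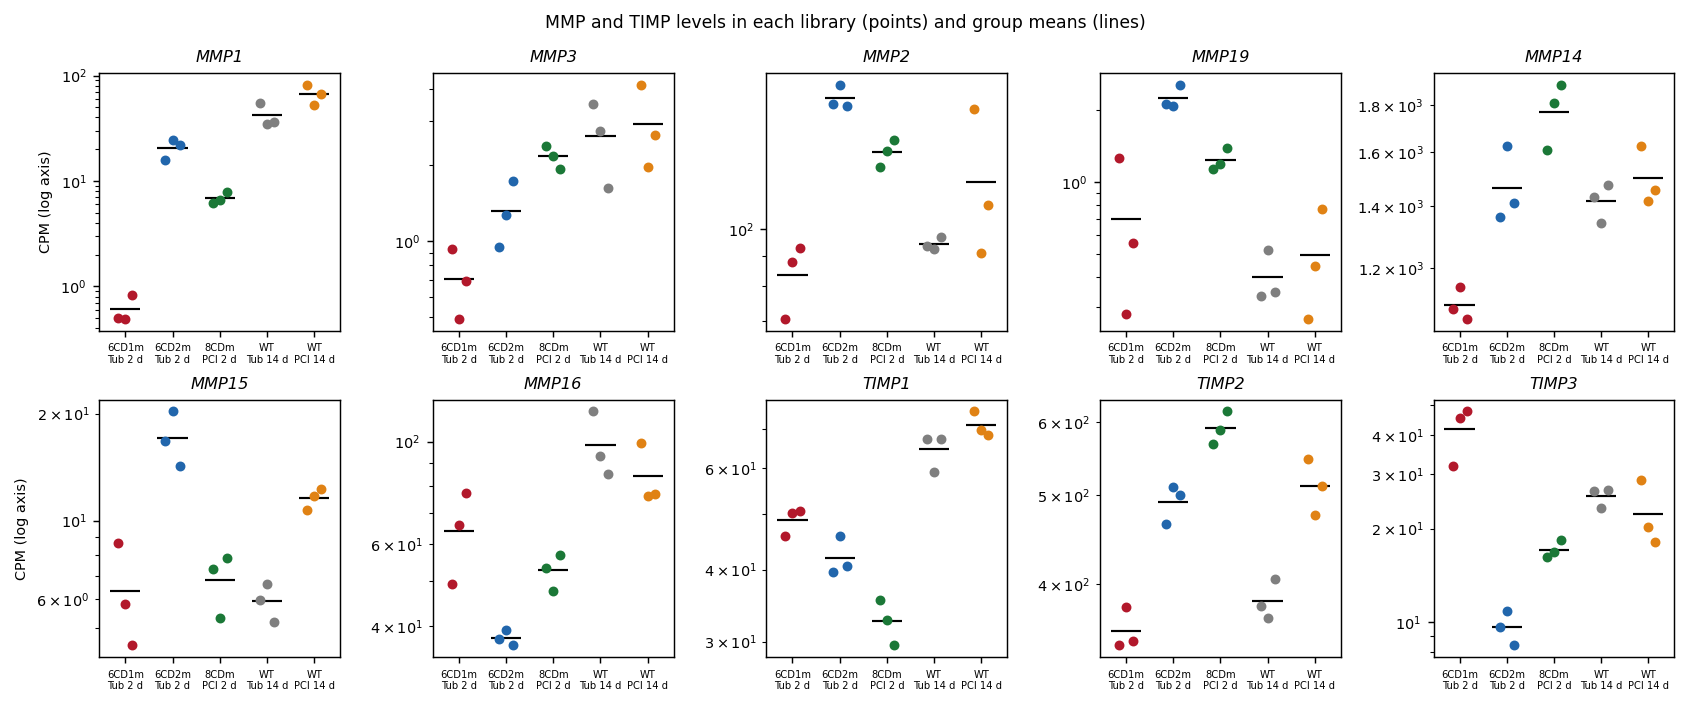
CPM on log axes for the 7 MMPs and 3 TIMPs in each library (points, replicates 1 to 3 from left to right) and group means (lines), with inhibitor (Tub, Tubastatin A; PCI, PCI-34051) and days of treatment under each group. MMP1 spans from 0.491 to 81.4 CPM, while MMP14 stays between 1058 and 1891 CPM.

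MMP1, interstitial collagenase, varied most among the 10 genes. It lies on chromosome 11 from 102789920 to 102798160 (minus strand, ENSG00000196611; this and the following positions are whole gene spans, introns included, from GENCODE 29 on GRCh38). The 3 libraries of 6CD1m cells had 0.505, 0.491 and 0.837 CPM (6, 7 and 12 counts), and those of 6CD2m cells had 15.7, 24.5 and 22.0 CPM. The 8CDm libraries had 6.15, 6.66 and 7.89 CPM. WT Tub libraries had 54.9, 34.8 and 36.2 CPM and WT PCI libraries 81.4, 53.0 and 67.5 CPM. The groups were thus ordered WT PCI, WT Tub, 6CD2m, 8CDm and 6CD1m, and only the WT groups overlapped.

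MMP1 was 33.3-fold lower in 6CD1m than in 6CD2m cells (log2 fold change -5.06 ± 0.32, edgeR adjusted p = 2.2e-08), which received the same inhibitor at the same dose for the same time. Against WT Tub it was 67.3-fold lower in 6CD1m cells (-6.07 ± 0.31, edgeR adjusted p = 3.4e-08), the sixth largest change by size among the 155 genes that passed the threshold. Against 8CDm cells it was 11.1-fold lower (-3.47 ± 0.34, edgeR adjusted p = 2.3e-06). In 8CDm cells MMP1 was 9.74-fold lower than in WT PCI (-3.28 ± 0.23, edgeR adjusted p = 6.5e-08). In 6CD2m cells it was 3.00-fold higher than in 8CDm cells (1.59 ± 0.22, edgeR adjusted p = 6.3e-05). By size of change MMP1 ranked 93 of 2578 passing genes for 6CD1m against 6CD2m cells and 193 of 2161 for 6CD1m against 8CDm cells. It ranked 218 of 2140 for 8CDm cells against WT PCI and 737 of 1946 for 6CD2m against 8CDm cells. The difference of 6CD2m cells from WT Tub missed the threshold of 0.001 (-1.02 ± 0.21, edgeR adjusted p = 0.0014), and it passed with DESeq2, without the filter on low counts and with offsets for GC content. WT Tub and WT PCI also did not differ at this threshold (-0.68 ± 0.20, edgeR adjusted p = 0.046).

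MMP3, stromelysin 1, cleaves proteoglycans and activates the MMP1 precursor. The lower end of its span lies 45881 bases above that of MMP1 (chromosome 11, 102835801 to 102843803). It had 0.926, 0.491 and 0.697 CPM in 6CD1m, 0.947, 1.27 and 1.72 in 6CD2m and 2.39, 2.17 and 1.93 CPM in 8CDm libraries. WT Tub libraries had 3.48, 2.72 and 1.62 CPM and WT PCI libraries 4.16, 1.96 and 2.64 CPM. The 6CD1m libraries were the lowest here too and did not overlap with any other group, but with 7 to 78 counts per library no comparison passed the threshold by edgeR. Its unadjusted p was below 0.05 in 4 of the 7 comparisons, and DESeq2 called 1 (6CD1m against WT Tub, DESeq2 adjusted p = 0.00089). The largest difference was that of 6CD1m from WT Tub (-1.89 ± 0.40, edgeR adjusted p = 0.010). Across the 15 libraries log2 CPM of MMP1 and MMP3 correlated with a Pearson r of 0.79, a description over libraries that share lines and treatments.

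Other genes around MMP1 were examined because the MMP cluster of chromosome 11 lies there, in a window chosen after the values were seen. Of the 13 tested genes within 1000000 bases by this measure, MMP3 included, at most 1 passed the threshold in any comparison. BIRC3, an inhibitor of apoptosis, was lower in 6CD1m than in 6CD2m cells (-2.54, edgeR adjusted p = 4e-05) and higher in 6CD2m than in 8CDm cells (1.73, edgeR adjusted p = 0.00065). BIRC2, its neighbour, was higher in 8CDm cells than in WT PCI (0.78, edgeR adjusted p = 0.00093), and CEP126 higher in 6CD1m than in 8CDm cells (0.92, edgeR adjusted p = 0.00074).

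MMP2, gelatinase A, degrades denatured collagen and basement membrane collagen (chromosome 16, 55389700 to 55506691, plus strand). It had 163, 176 and 162 CPM in 6CD2m and 128, 136 and 141 CPM in 8CDm libraries. The 6CD1m libraries had 70.5, 87.9 and 92.8 CPM, WT Tub libraries 93.8, 92.4 and 96.9, and WT PCI libraries 160, 91.1 and 110 CPM. The 6CD2m libraries lay above all others, and 1 WT PCI library came close to them. MMP2 was 1.99-fold lower in 6CD1m than in 6CD2m cells (-0.99 ± 0.16, edgeR adjusted p = 0.00019), a call lost without replicate 2 of 6CD2m (edgeR adjusted p = 0.0014). It was 1.77-fold higher in 6CD2m cells than in WT Tub (0.82 ± 0.16, edgeR adjusted p = 9e-04), just inside the threshold, and this call was lost when any of the 6 libraries was left out.

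MMP19, a secreted enzyme of wide tissue distribution, was the least abundant of the MMPs per length (chromosome 12, 55835433 to 55842966, minus strand). It had 2.13, 2.08 and 2.56 CPM in 6CD2m (36 to 46 counts) and 1.14, 1.19 and 1.40 CPM in 8CDm libraries. The 6CD1m libraries were spread over 1.26, 0.281 and 0.558 CPM (15, 4 and 8 counts). WT Tub libraries had 0.332, 0.519 and 0.347 CPM and WT PCI libraries 0.267, 0.442 and 0.773 CPM. It was 5.61-fold higher in 6CD2m cells than in WT Tub (2.49 ± 0.46, edgeR adjusted p = 0.00073), and leaving out any of the 6 libraries lost the call. TMEM198B, a pseudogene on the other strand that overlaps its 3′ end, had 120 to 489 counts, and since it is not given whether counting used strand, MMP19 is uncertain.

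MMP14, or MT1-MMP, is the membrane-bound collagenase that activates MMP2 (chromosome 14, 22836557 to 22849027, plus strand). It was by far the most abundant, with 1084, 1146 and 1058 CPM in 6CD1m, 1363, 1625 and 1411 in 6CD2m and 1608, 1807 and 1891 CPM in 8CDm libraries. WT Tub libraries had 1432, 1344 and 1477 CPM and WT PCI libraries 1625, 1418 and 1456 CPM. The 6CD1m libraries lay below every other library, and the other groups overlapped in their order. MMP14 was 1.61-fold lower in 6CD1m than in 8CDm cells (-0.69 ± 0.10, edgeR adjusted p = 6.2e-05), a call lost with only the 6 libraries compared (edgeR adjusted p = 0.0015). Against 6CD2m cells the value was -0.42 ± 0.10 (edgeR adjusted p = 0.0029) and against WT Tub -0.37 ± 0.10 (edgeR adjusted p = 0.028).

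MMP15, or MT2-MMP, is a related membrane-type enzyme (chromosome 16, 58025566 to 58046901, plus strand). It had 16.8, 20.3 and 14.2 CPM in 6CD2m libraries, above all others. WT PCI libraries followed with 10.7, 11.8 and 12.2 CPM. The 6CD1m libraries had 8.67, 5.83 and 4.46 CPM, 8CDm libraries 7.29, 5.31 and 7.84 and WT Tub libraries 5.97, 6.61 and 5.199 CPM, and these last groups overlapped. MMP15 was 2.89-fold higher in 6CD2m cells than in WT Tub (1.53 ± 0.22, edgeR adjusted p = 6.5e-05) and 2.72-fold lower in 6CD1m than in 6CD2m cells (-1.45 ± 0.22, edgeR adjusted p = 0.00013), the latter not past the threshold with only the 6 libraries compared (edgeR adjusted p = 0.0024). It was 2.51-fold higher in 6CD2m than in 8CDm cells (1.33 ± 0.21, edgeR adjusted p = 0.00023), a call lost without replicate 2 of 6CD2m, replicate 1 of 8CDm or replicate 2 of 8CDm (edgeR adjusted p = 0.0020, 0.0012 and 0.0022). The WT groups did not overlap, with a value of -0.96 ± 0.22 for WT Tub against WT PCI (edgeR adjusted p = 0.015).

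MMP16, or MT3-MMP, had its highest levels in WT cells (chromosome 8, 88032009 to 88328025, minus strand). WT Tub libraries had 116, 93.2 and 85.3 CPM and WT PCI libraries 99.4, 76.5 and 77.2 CPM. The 6CD1m libraries had 49.3, 66.0 and 77.4 CPM, 8CDm libraries 53.5, 47.7 and 57.0 and 6CD2m libraries 37.5, 39.2 and 36.4 CPM. Only the 6CD2m libraries lay apart from their neighbours in this order, below all others. For 6CD1m against 6CD2m cells MMP16 missed the threshold (0.77 ± 0.16, edgeR adjusted p = 0.0015). It also missed for 8CDm cells against WT PCI (-0.68 ± 0.16, edgeR adjusted p = 0.0037). Both values passed with DESeq2, with upper-quartile scaling, without the filter on low counts and with offsets for GC content. MMP16 was 2.61-fold lower in 6CD2m cells than in WT Tub (-1.38 ± 0.16, edgeR adjusted p = 9.2e-06). Thus within the membrane-type group MMP15 was higher and MMP16 lower in 6CD2m cells than in WT Tub, and MMP14 had a value of 0.05 ± 0.10 (edgeR adjusted p = 0.74).

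**Figure D2:**
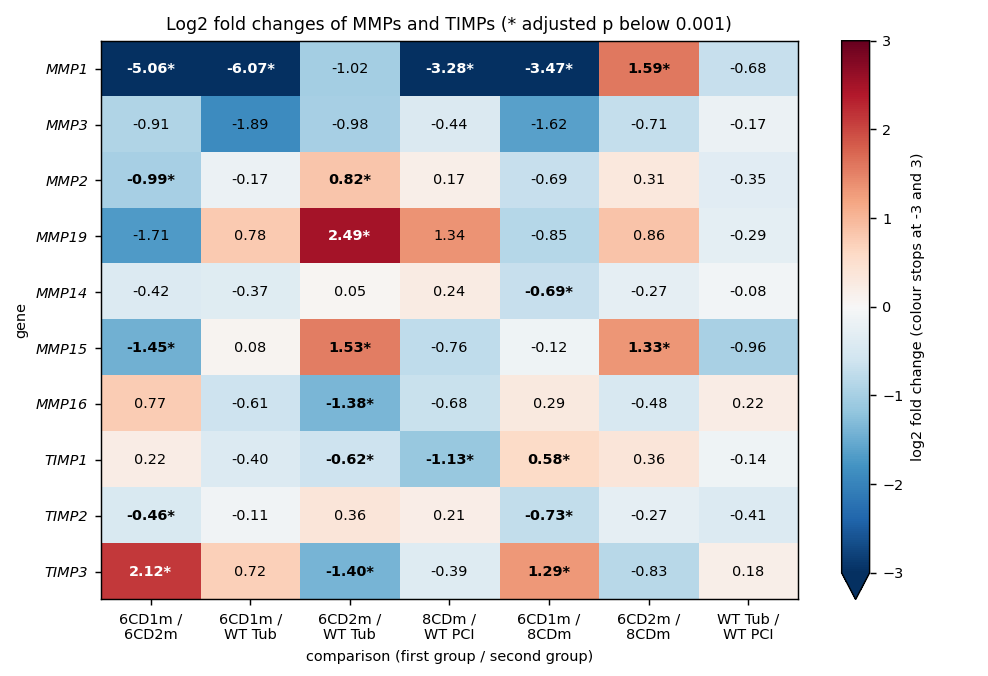
Log2 fold changes (first group over second) of the 10 genes (rows) in the 7 comparisons (columns), as numbers and colours (red higher, blue lower in the first group). Bold values with an asterisk passed an edgeR adjusted p of 0.001, and MMP1 has the lowest value in the table, -6.07.

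TIMP1 inhibits most secreted MMPs but membrane-type enzymes only weakly (chromosome X, 47582313 to 47586789, plus strand, within the span of SYN1 on the other strand, which had 1 to 11 counts). WT PCI libraries had 75.2, 69.8 and 68.5 CPM and WT Tub libraries 67.3, 59.1 and 67.4 CPM. The 6CD1m libraries had 45.8, 50.2 and 50.5 CPM, 6CD2m libraries 39.5, 45.6 and 40.5 and 8CDm libraries 35.5, 32.7 and 29.6 CPM. No neighbours in this order overlapped, although the lowest 6CD1m library (45.8 CPM) and the highest 6CD2m library (45.6 CPM) nearly met. TIMP1 was 2.18-fold lower in 8CDm cells than in WT PCI (-1.13 ± 0.10, edgeR adjusted p = 6.9e-07) and 1.54-fold lower in 6CD2m cells than in WT Tub (-0.62 ± 0.10, edgeR adjusted p = 0.00015). The first of these calls was lost with GC offsets and the replicate block together (edgeR adjusted p = 0.0018). TIMP1 was 1.498-fold higher in 6CD1m than in 8CDm cells (0.58 ± 0.10, edgeR adjusted p = 0.00033). The last call was lost without replicate 2 or 3 of 6CD1m or replicate 2 or 3 of 8CDm, and that of 6CD2m against WT Tub without replicate 1 or 3 of 6CD2m or replicate 1 or 3 of WT Tub, with edgeR adjusted p of at most 0.099 and 0.015 over the alternatives.

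TIMP2 was the most abundant TIMP (chromosome 17, 78852977 to 78925387, minus strand). The 8CDm libraries were highest at 568, 589 and 616 CPM, above WT PCI at 547, 475 and 511 CPM. The 6CD2m libraries had 465, 510 and 500 CPM, WT Tub libraries 379, 368 and 405 and 6CD1m libraries 344, 378 and 347 CPM. TIMP2 was 1.66-fold lower in 6CD1m than in 8CDm cells (-0.73 ± 0.08, edgeR adjusted p = 9.8e-06). It was also lower in 6CD1m than in 6CD2m cells (-0.46 ± 0.08, edgeR adjusted p = 0.00049), and that call was lost without replicate 1 or 3 of 6CD1m or any 6CD2m library. CEP295NL on the same strand and 3 transcripts on the other strand overlap TIMP2, with at most 534 counts each in a library against 4081 to 11476 for TIMP2.

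TIMP3, which binds the extracellular matrix and also inhibits several ADAM proteases, had the opposite order in the HDAC6 lines (chromosome 22, 32801701 to 32863043, plus strand, within the span of SYN3 on the other strand, which had at most 5 counts). The 6CD1m libraries were highest with 31.9, 45.7 and 47.9 CPM and 6CD2m libraries lowest with 9.65, 10.8 and 8.40 CPM. Between them lay WT Tub at 26.4, 23.3 and 26.6, WT PCI at 28.8, 20.2 and 18.1 and 8CDm at 16.2, 16.8 and 18.3 CPM. TIMP3 was 4.34-fold higher in 6CD1m than in 6CD2m cells (2.12 ± 0.18, edgeR adjusted p = 6.7e-07) and 2.45-fold higher than in 8CDm cells (1.29 ± 0.18, edgeR adjusted p = 5.6e-05). In 6CD2m cells it was 2.64-fold lower than in WT Tub (-1.40 ± 0.18, edgeR adjusted p = 3e-05). Its value in 6CD1m cells against WT Tub was 0.72 ± 0.17 (edgeR adjusted p = 0.022).

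By comparison, 6CD1m against 6CD2m cells gave 1 of the 10 genes higher (TIMP3) and 4 lower (MMP1, MMP2, MMP15 and TIMP2), where 6.54% of the 19535 tested genes were higher and 6.65% lower. The 3 partners of MMP2 activation had lower means in 6CD1m cells, and MMP2 and TIMP2 passed the threshold while MMP14 did not. For 6CD1m cells against WT Tub, 1 of 10 genes was lower (MMP1) and none higher, where 0.522% and 0.271% of all genes were. In that comparison 6 of the 10 genes reached an unadjusted p below 0.05 and DESeq2 called 2 (MMP1 and MMP3). The shares of all genes by these 2 measures were not computed, and the percentages above are not their background. For 6CD2m cells against WT Tub, 3 genes were higher (MMP2, MMP15 and MMP19) and 3 lower (MMP16, TIMP1 and TIMP3), where 4.61% of all genes were higher and 7.22% lower. The summed mesenchymal markers given above were lower in 6CD2m than in WT Tub libraries, and their part in these values was not tested. The median log2 fold changes of the 10 genes in these 3 comparisons were -0.69, -0.27 and -0.29, beside 0.05, -0.01 and -0.01 over all tested genes.

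For 8CDm cells against WT PCI, 2 of 10 genes were lower (MMP1 and TIMP1) and none higher, where 6.27% and 4.69% of all genes were. For 6CD1m against 8CDm cells, 2 genes were higher (TIMP1 and TIMP3) and 3 lower (MMP1, MMP14 and TIMP2), where 5.99% and 5.07% of all genes were. For 6CD2m against 8CDm cells, 2 genes were higher (MMP1 and MMP15) and none lower, where 5.6% and 4.37% of all genes were. WT Tub and WT PCI differed in none of the 10 genes by edgeR, where 0.333% of all genes were higher and 0.087% lower in WT Tub. In that comparison 4 of the 10 genes reached an unadjusted p below 0.05 and DESeq2 called 2 (MMP15 and TIMP2), again without a share of all genes computed by these measures. The median log2 fold changes of the 10 genes in these 4 comparisons were -0.41, -0.69, 0.02 and -0.23, beside -0.04, 0.05, -0.01 and 0.01 over all tested genes. Among all 5 groups 9 of the 10 genes differed, all but MMP3 (edgeR adjusted p = 0.0023), where 24.6% of all genes did. Comparisons that have a group in common share its libraries, so their calls are not independent.

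The difference of the HDAC6 lines from WT Tub was set against that of 8CDm cells from WT PCI with an interaction term, chosen after seeing the data. For MMP1 the term was -2.79 ± 0.41 for 6CD1m (edgeR adjusted p = 0.00023), a larger fall than in 8CDm cells, and 2.27 ± 0.30 for 6CD2m cells (edgeR adjusted p = 7.1e-05), a smaller one. MMP15 was the other gene to pass, with 2.29 ± 0.31 for 6CD2m cells (edgeR adjusted p = 7.8e-05). The background was 5.42% of all genes for 6CD1m and 5.16% for 6CD2m cells. Without replicate 1 or replicate 2 of 6CD1m the first MMP1 value no longer passed (edgeR adjusted p = 0.0011 and 0.0017).

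**Figure D3:**
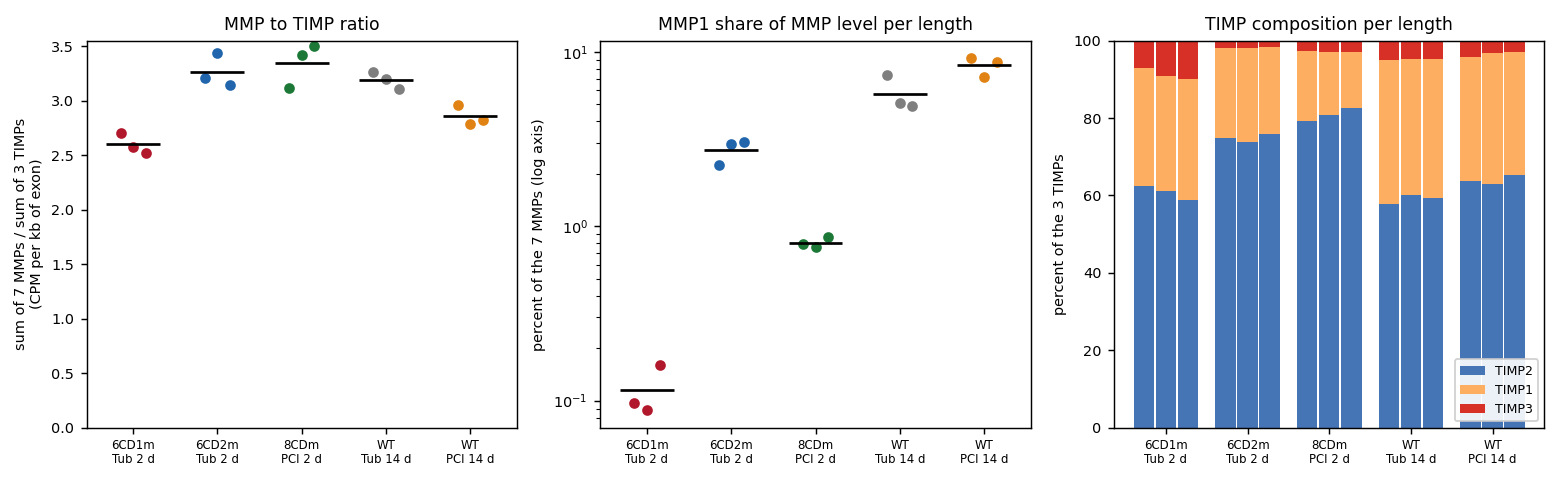
Left, ratio of the summed CPM per kb of exon of the 7 MMPs to that of the 3 TIMPs. Middle, MMP1 as a percentage of the MMP sum (log axis). Right, TIMP composition in percent, 1 bar per library. Points are libraries and lines group means, and the lowest ratios are those of 6CD1m (2.52 to 2.70).

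Levels of different genes were compared per kb of exon. MMP14 made up 80.8% to 91.9% of the summed MMP level in every library, and MMP2 4.95% to 9.34%. MMP1 contributed 7.22% to 9.18% in WT PCI, 4.87% to 7.33% in WT Tub, 2.25% to 3.04% in 6CD2m, 0.765% to 0.863% in 8CDm and 0.0885% to 0.161% in 6CD1m libraries. TIMP2 made up 57.7% to 82.5% of the TIMP level, with its highest share in 8CDm libraries (79.2% to 82.5%). TIMP3 contributed 7.10% to 9.94% in 6CD1m and 1.56% to 1.92% in 6CD2m libraries. The ratio of summed MMP to summed TIMP level was 2.52 to 2.70 in 6CD1m, 2.78 to 2.96 in WT PCI and 3.11 to 3.50 in the other groups, with no overlap between these ranges. These ratios are of RNA and were not tested.

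The other genes of the system were counted from lists of MMPs, inhibitors, activators, transcription factors and ADAMs. Of 16 other MMP genes only MMP9, MMP17, MMP24 and MMP25 passed the filter on low counts, and the other 12 had at most 9 counts in a library. MMP9, gelatinase B, had 0.253, 1.12 and 0.906 CPM in 6CD1m, 16.8, 18.7 and 15.4 in 6CD2m and 24.03, 23.0 and 24.8 CPM in 8CDm libraries. WT Tub libraries had 2.82, 1.82 and 1.91 CPM and WT PCI libraries 0.587, 0.759 and 0.322 CPM. It was high in 6CD2m and 8CDm cells alone. MMP9 was 21.5-fold lower in 6CD1m than in 6CD2m cells (-4.42 ± 0.30, edgeR adjusted p = 4.8e-08), while in 8CDm cells, where MMP1 was lower than in WT PCI, it was 42.4-fold higher (edgeR adjusted p = 7.6e-09).

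Among 8 inhibitors and clearance genes, 4 were tested. LRP1, an endocytic receptor that clears MMPs and their complexes with TIMPs, passed in 4 comparisons. Its group means were 566 ± 12.4 CPM in 6CD1m, 832 ± 42.2 in 6CD2m, 1184 ± 77.7 in 8CDm, 667 ± 30.4 in WT Tub and 652 ± 43.4 CPM in WT PCI. RECK, a membrane-anchored MMP inhibitor, had a value of -1.195 ± 0.25 in 6CD1m against 6CD2m cells, which missed the threshold (edgeR adjusted p = 0.0018).

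Of 12 activators and inducers, 10 were tested. For 6CD1m against 6CD2m cells 1 was higher and 2 lower, where 6.54% of all tested genes were higher and 6.65% lower. For 8CDm cells against WT PCI 3 were lower and none higher, where 6.27% and 4.69% of all tested genes were. IL1B, an interleukin that induces MMP1 in many cells, was at 276 ± 48.4 CPM in WT Tub and 294 ± 64.1 CPM in WT PCI, against 39.7 ± 4.76 in 6CD1m, 9.71, 11.3 and 12.1 CPM in the 6CD2m libraries and 63.1 ± 0.90 CPM in 8CDm cells. It was the one gene of these lists called in 6CD1m cells against WT Tub (-2.79 ± 0.16, edgeR adjusted p = 1.2e-07). In that comparison 0.522% of all tested genes were lower and 0.271% higher. IL1B was lowest in 6CD2m cells (1.85 ± 0.17 for 6CD1m against 6CD2m, edgeR adjusted p = 9.3e-07), and any link to MMP1 was not tested. PLAT, tissue plasminogen activator, was at 25.7 ± 0.98 CPM in 8CDm cells and between 147 and 181 CPM in the means of the other groups. IL6 was highest in 6CD2m cells (5.00 ± 0.35 CPM) and had a mean of 0.314 CPM in 8CDm cells. PLAU, urokinase, was at 1233 ± 113 CPM in 6CD2m and 565 ± 122 CPM in 6CD1m cells (-1.13 ± 0.17, edgeR adjusted p = 0.00014).

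All 16 transcription factors of the AP-1, ETS, NF-kB and RUNX families on the list were tested. For 6CD1m against 6CD2m cells 6 were higher and 2 lower, where 6.54% of all tested genes were higher and 6.65% lower. For 6CD2m cells against WT Tub 1 was higher and 5 lower, where 4.61% and 7.22% of all tested genes were. For 8CDm cells against WT PCI 2 were higher and 2 lower, where 4.69% and 6.27% of all tested genes were. ETS1 was at 345 ± 30.5 CPM in 6CD2m and 379 ± 20.7 CPM in 8CDm cells and between 167 and 218 CPM in the means of the other groups. FOSL1, an AP-1 subunit, was lowest in the same groups, with 143.3 ± 13.04 CPM in 6CD2m, 111 ± 8.10 in 8CDm and means of 238 to 253 CPM elsewhere. ETV1 was 2.45-fold higher and ETS2 1.80-fold higher in 6CD1m than in 6CD2m cells (edgeR adjusted p = 0.00035 and 4.5e-05).

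Of 12 listed ADAM and ADAMTS proteases, a family of which TIMPs inhibit some members, 9 were tested. For 6CD1m against 6CD2m cells 1 was higher and 2 lower, where 6.54% of all tested genes were higher and 6.65% lower. ADAMTS9, which cleaves proteoglycans, was at 20.5 ± 1.62 CPM in 6CD2m, 5.69 ± 0.11 in 8CDm and 2.69 to 3.32 CPM in the means of the other groups. It was 6.18-fold lower in 6CD1m than in 6CD2m cells (-2.63 ± 0.20, edgeR adjusted p = 1.9e-07). ADAM17, the sheddase of TNF and a target of TIMP3, was 1.90-fold lower in the same comparison (-0.93 ± 0.16, edgeR adjusted p = 3e-04) and ADAM19 1.41-fold higher (0.49 ± 0.08, edgeR adjusted p = 0.00015). ADAMTS12 was lower in both HDAC6 lines than in 8CDm cells (-3.001 ± 0.38 for 6CD1m and -2.41 ± 0.35 for 6CD2m, edgeR adjusted p = 2.3e-05 and 8.1e-05).

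**Figure D4:**
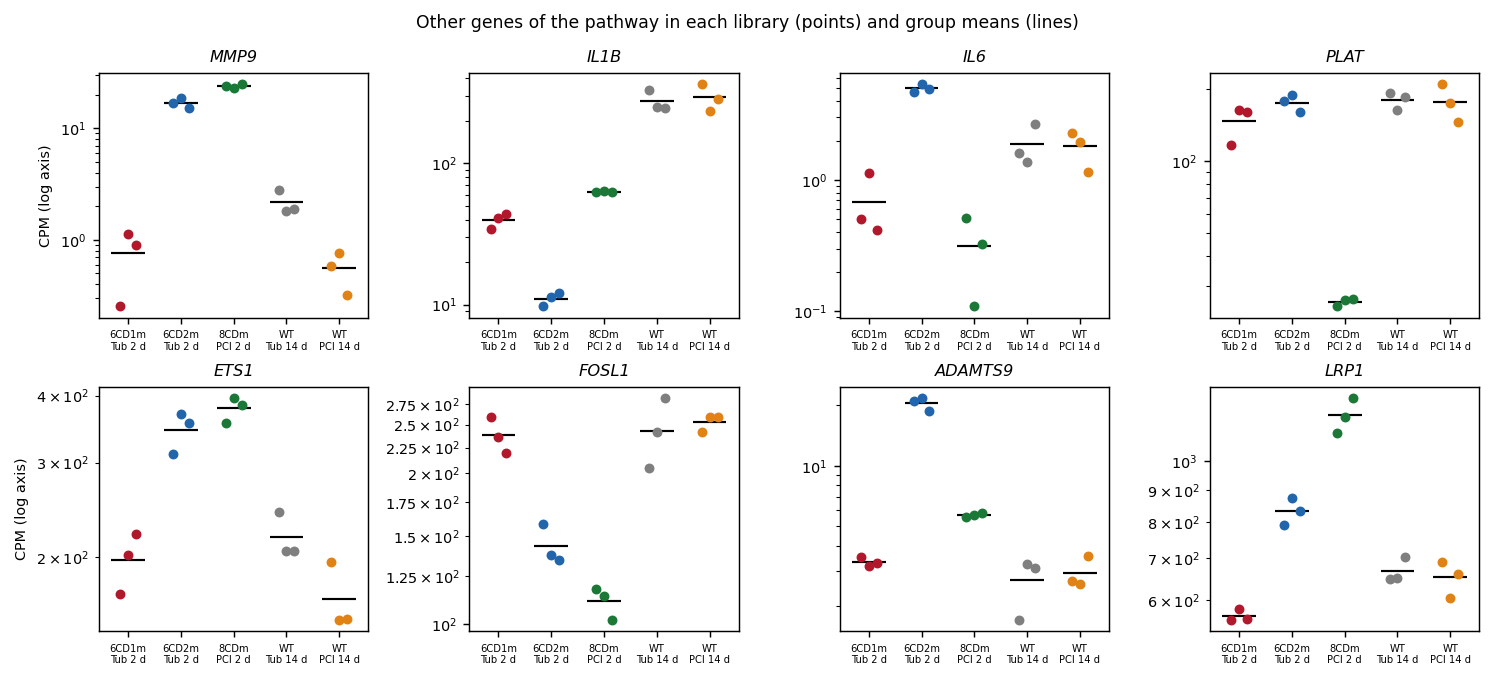
CPM on log axes of 8 other genes of the pathway in each library (points) and group means (lines). MMP9 and ETS1 are high in 6CD2m and 8CDm cells and FOSL1 is low there, IL1B is highest in both WT groups, and PLAT is low in 8CDm cells.

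For MMP1, MMP19 and TIMP3, the genes with the widest range of group means, the 3 protein-coding genes with the most similar log2 CPM over 15 libraries were sought among 11910 tested protein-coding genes with a mean log2 CPM of at least 1. For MMP1 these were ACOT2 (Pearson r = 0.969), HDAC6 (0.952) and VSTM4 (0.951). ACOT2, an acyl-CoA thioesterase, had group means of 9.44 and 8.55 CPM in WT Tub and WT PCI, 2.73 in 6CD2m and 2.20 CPM in 8CDm, and 0 counts in the 3 libraries of 6CD1m cells, where a count of 0 allows up to 3 counts per library. For MMP19 they included PDZD2 (0.926) and PCLO (0.912), and for TIMP3 they were TLN2 (0.951), PLK1 (0.949) and GALNT6 (0.946). TLN2, a talin of cell adhesions, was at 149 ± 7.33 CPM in 6CD1m and 65.0 ± 2.90 CPM in 6CD2m cells. The libraries share lines and treatments, so these values describe a common order of the groups.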

How the data were processed

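RNA-seq of 15 HT1080 libraries was analysed, with groups taken from the labels. The authors deposited expected counts per gene, estimated by RSEM from trimmed and aligned reads. These were rounded to whole numbers, since 21.84% of those above 0 had a decimal part. Per the labels, reads were ribosomal RNA-depleted and paired, and the submitters' processing notes name Trimmomatic 0.39, Bowtie2 2.4.5, RSEM 1.3.3, DESeq2 1.38.2 and GRCh38. The annotation and strand setting of counting are not given in the sources used here. Library totals were 10932455 to 19983710 (median 17551887), and low counts limit MMP1 in 6CD1m cells, MMP3 and MMP19.

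All 15 libraries were fitted in 1 edgeR 4.0.16 quasi-likelihood model (R 4.3.3, TMM, filterByExpr, 19535 genes, common biological coefficient of variation 16.4%), with Benjamini-Hochberg adjusted p below 0.001. The code was tested on simulated data. Positions and exon lengths came from GENCODE 29 (57055 of 60675 genes matched). Alternatives were DESeq2 1.42.0, upper-quartile scaling, no filter on low counts, a threshold of 0.05, only the 6 libraries compared, a replicate block, GC offsets (99.21% of tested genes), both of these together, and leaving out each library. By the labels' replicate numbers only the WT groups paired (correlations of deviations 0.505, 0.235 and 0.169), with no source saying what a number marks. Named were all 10 genes, at most 4 genes per list called in the most comparisons, and HDAC6 and HDAC8. Also named were, for the 3 genes with the widest range of group means, the 3 protein-coding genes with the highest Pearson r, of which 1 is not reported here. Outside this rule, genes near MMP1, genes overlapping a listed gene, and the markers VIM, S100A4, THY1, EPCAM, CDH1, PTPRC and PECAM1 were picked with their values in view. The genes and lists were chosen with earlier results of these data known, and the interaction terms after seeing the data.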

Additional observations from a re-analysis of the deposited data

Results flagged for a closer look

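The change from WT cells differed between the lines for MMP1 and MMP15, by an interaction term in edgeR chosen after seeing the data. For MMP1 the term was -2.79 for 6CD1m against 8CDm cells (edgeR adjusted p = 0.00023), with values over 19 alternatives between -3.13 and -2.50 and adjusted p of at most 0.0017. For MMP1 in 6CD2m against 8CDm cells it was 2.27 (edgeR adjusted p = 7.1e-05), between 2.10 and 2.54 over the alternatives. For MMP15 in 6CD2m against 8CDm cells it was 2.29 (edgeR adjusted p = 7.8e-05), between 1.92 and 2.42 over the alternatives. Line, inhibitor and WT control change together in these terms and cannot be told apart.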

How the results depend on the processing

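Of the 21 calls for the 10 genes over 7 comparisons, 11 passed in all 14 alternatives, 10 were lost in at least 1 and 0 changed direction. Of 49 values that were not called, 26 passed in at least 1 alternative. The threshold of 0.05 is 1 of these alternatives and can only add calls, and 24 values passed under it. At an adjusted p below 0.05, 8 genes were called for 6CD1m against 6CD2m, 6 for 6CD1m against WT Tub, 5 for 8CDm against WT PCI, 7 for 6CD2m against 8CDm and 3 for WT Tub against WT PCI. For 6CD2m against WT Tub all but MMP14 were called at 0.05, and for 6CD1m against 8CDm all but MMP15, MMP16 and MMP19. With only the 6 libraries compared, 3 were called for 6CD1m against 6CD2m, 3 for 6CD1m against 8CDm and 5 for 6CD2m against 8CDm. DESeq2 called 2 for 6CD1m against WT Tub and 2 for WT Tub against WT PCI. The shares of all genes called at 0.05, with only the 6 libraries compared and by DESeq2 were not computed, so these counts have no background. Log2 fold changes correlated with GC content across genes (Spearman rho between -0.41 and 0.319 in the 7 comparisons). GC offsets added 5 calls and lost 3 of the 21. The calls added were MMP1 for 6CD2m against WT Tub and MMP16 for 6CD1m against 6CD2m, 6CD1m against 8CDm, 6CD2m against 8CDm and 8CDm against WT PCI. With the replicate block 4 were added, without MMP16 for 6CD2m against 8CDm. The calls that GC offsets lost were MMP2 and TIMP1 for 6CD2m against WT Tub and TIMP1 for 6CD1m against 8CDm. With the replicate block added GC offsets lost 8, the same 3 and also MMP2 and TIMP2 for 6CD1m against 6CD2m, MMP19 for 6CD2m against WT Tub, TIMP1 for 8CDm against WT PCI and MMP14 for 6CD1m against 8CDm, and left 5 genes among the 5 groups. Leaving out 1 library gave 3 to 5 genes for 6CD1m against 6CD2m (3 without replicate 2 of 6CD2m) and 3 to 4 for 6CD2m against WT Tub (3 without replicate 1 or 3 of either group). It gave 1 to 2 for 6CD2m against 8CDm (1 without replicate 2 of 6CD2m or replicate 1 or 2 of 8CDm). The shares of all genes with 1 library left out, and among the 5 groups with GC offsets and the block, were not computed. With the replicate block 4, 1, 4, 2, 4, 2 and 0 genes were called in the 7 comparisons in the order of the report. Of all 19535 tested genes, 1723, 76, 1703, 1410, 1482, 1444 and 27 were called with it. Without it these numbers were 2578, 155, 2310, 2140, 2161, 1946 and 82. The block changed no call of the 10 genes between the paired WT groups. In the other comparisons the samples share only a number.

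Directions turned only for values that were not called, and the cause was not tested. These log2 fold changes were TIMP2 for 6CD1m against WT Tub (0.007 with upper-quartile scaling) and MMP15 in the same comparison (-0.28 with GC offsets, -0.28 with the block added and between -0.20 and 0.26 over the fits without 1 library). For WT Tub against WT PCI they were MMP14, MMP16 and TIMP1 with GC offsets (0.154, -0.076 and 0.083) and with the block added (0.155, -0.076 and 0.084). In that comparison they were also MMP3 (-0.43 to 0.19) and MMP19 (-0.60 to 0.18) over the fits without 1 library. The fit of only the 6 libraries compared gave no value for MMP19 here or for 6CD1m against WT Tub, since it fell below the filter. Without 1 library, MMP15 for 6CD1m against 8CDm lay between -0.41 and 0.056, and MMP14 for 6CD2m against WT Tub between -0.034 and 0.11. Upper-quartile scaling moved the share of higher calls among all genes for 6CD2m against WT Tub from 38.96% to 49.65%, and the median of all genes to 0.104 for 6CD1m against WT Tub and 0.136 for 6CD1m against 8CDm.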
